A study of Mus musculus with 12 samples.

Results

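Cluster 12 of the 28W kidney library was a group of 184 cell barcodes among 7135 in that library (2.58%, exact binomial 95% interval 2.22 to 2.97) and 20510 in the whole series. Its members were those to which the authors had given cluster number 12 in their deposited cluster file. Gene levels came from the deposited mean counts of each cluster, from which whole counts of unique molecular identifiers (UMIs, tags that each mark a captured transcript) were recovered. The cluster held 1038369 UMIs from 13393 genes, or 5643 UMIs per cell, against 28899015 UMIs in the 6951 cells of the other 11 kidney clusters. Levels below are UMIs per 1000000 UMIs of a cluster (CPM), with exact Poisson 95% intervals in parentheses.

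The cells had been sorted as PD-1+CD44+CD8+ T cells out of NZB/W F1 mice, a hybrid strain in which lupus nephritis arises with age, and were sequenced by the 10x Genomics 5′ method. Spleen was taken at 12 and at 28 weeks (12W spleen and 28W spleen) and kidney only at 28 weeks (28W kidney), and the labels name no treatment. The study describes its NZB/W F1 animals as female. Each group lists 4 samples, whose titles are numbered in a form also used for sequencing lanes, so whether they are separate samples is not certain. Its tables pool them without a map from cells to samples and the number of mice is not stated, so each group was 1 library with no replicate check. The titles of the 28W spleen samples were followed, although their age field gives 12 weeks. Kidneys were digested with collagenase and passed over Percoll, steps that are not described for spleen. The sort was aimed at CD8+ T cells, and the labels name no myeloid cells. All intervals reflect counting error alone and leave out differences between animals or preparations.

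Mononuclear phagocytes comprise monocytes, macrophages and dendritic cells. Macrophages clear dying cells and immune complexes through complement and Fc receptors, and dendritic cells present antigen to T cells on MHC molecules. Neutrophils are short-lived granulocytes whose granule proteins kill microbes. In lupus nephritis, immune complexes lodge in glomeruli, and phagocytes and T cells are known to gather in the inflamed kidney.

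The 4 marker genes of the label were all far higher in cluster 12 than in any other kidney cluster. *Cd74*, the invariant chain of MHC class II, was at 24827 CPM (24525 to 25132) in cluster 12 and between 28.4 and 8718 CPM in the other 11 clusters. *Cst3*, which encodes the protease inhibitor cystatin C and is abundant in phagocytes, was at 14744 CPM against 183 to 586 CPM. *Lyz2*, the lysozyme of myeloid cells, was at 3170 CPM (3063 to 3281) against 1.39 to 12.6 CPM. *C1qa*, a chain of complement C1q that macrophages make, was at 2293 CPM (2202 to 2387) against 0.417 to 7.75 CPM. No other cluster came near these levels except cluster 8 for *Cd74*, which is taken up below. Of the library's UMIs for each gene, cluster 12 held 46.4% for *Cd74*, 67.3% for *Cst3*, 96.0% for *Lyz2* and 97.4% for *C1qa*.

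These genes named the cluster, and the clusters were made from the same counts, so every contrast of cluster 12 with the rest of its library is a description without a test. Of 13582 genes with at least 10 UMIs in the library, 374 were at least 4-fold higher in cluster 12 than in the other cells (2.75%) and 88 at least 4-fold lower (0.648%). Fold here means the ratio after adding 10 CPM to both sides, which understates the difference for genes with few UMIs. Log2 ratios and calls of at least 4-fold use this addition. Other fold values below are plain ratios of CPM without it. The median log2 ratio over all 13582 genes was -0.05. Cluster 12 held at least 50% of the library's UMIs for 572 genes (4.21%) and at least 90% for 144 genes (1.06%), although it had 3.47% of all UMIs. It was the highest of the 12 clusters for 2239 genes (16.5%).

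The 25 genes with the highest log2 ratio came from more than 1 kind of myeloid cell. The first 4 were neutrophil genes. *S100a9* and *S100a8*, the subunits of calprotectin, had log2 ratios of 9.12 and 9.11, followed by the granule genes *Ngp* with 8.24 and *Camp*, the cathelicidin precursor, with 7.93. *Lyz2* and the C1q genes *C1qa*, *C1qb* and *C1qc* came next, with log2 ratios of 7.76, 7.56, 7.44 and 7.22. The signalling adaptors *Fcer1g* and *Tyrobp* had log2 ratios of 6.56 and 6.55. The rest were *Lcn2* and *Ltf* (iron-binding granule proteins), *Alox5ap* (leukotriene synthesis), *Cst3*, *Apoe* (lipid transport), *Plbd1*, *Ifitm3*, *Lst1*, *Anxa1*, *Csf1r*, *H2-Eb1*, *H2-Ab1*, *Aif1*, *Spi1* and *Ccl12*. Their levels in cluster 12 ran from 324 CPM for *Ccl12* to 14744 CPM for *Cst3*. Counted in UMIs, without division by length, *Cd74* and *Cst3* were also among the most abundant genes of the cluster beside housekeeping genes such as *Tmsb4x* (17926 CPM, log2 ratio 0.36), *Actb* (-0.21) and *Eef1a1* (-0.42), whose levels were near those of the other cells.

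**Figure D1:**
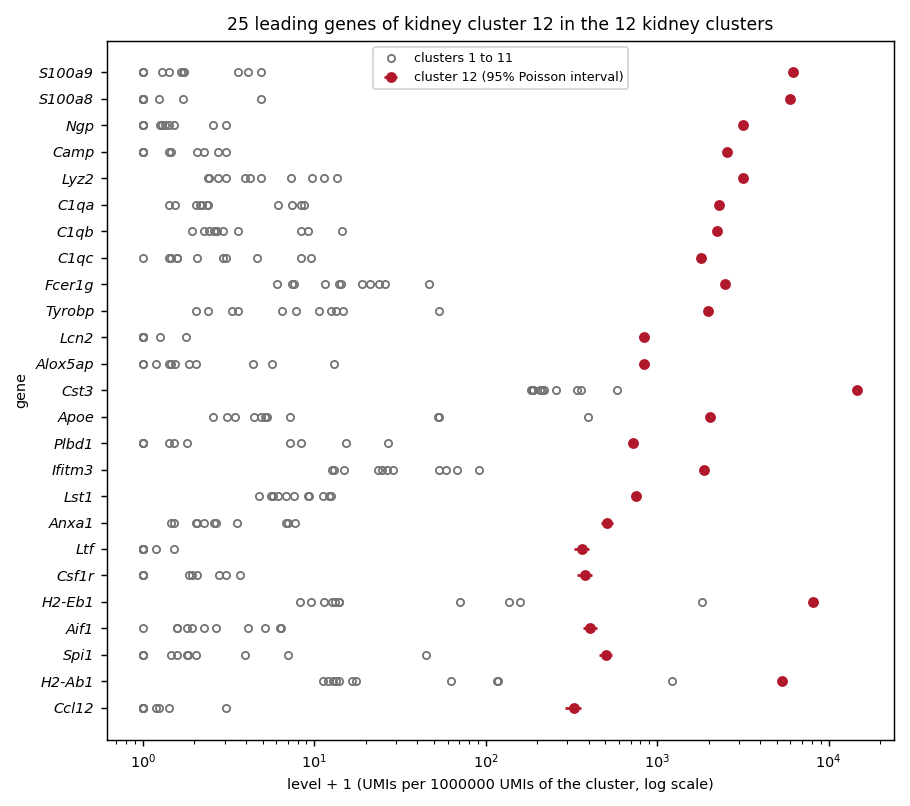
Level of the 25 leading genes of cluster 12 in each of the 12 kidney clusters, as UMIs per 1000000 UMIs of the cluster plus 1, on a log axis. Filled red points are cluster 12 with the exact Poisson 95% interval, and open points are clusters 1 to 11. *S100a9* is at 6176 in cluster 12 and at most 3.92 elsewhere, whereas *H2-Ab1* and *H2-Eb1* also reach 1225 and 1837 in cluster 8.

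Promoter sequence is shown for 4 of these genes, 3 of the neutrophil set and 1 of the C1q set, because the transcription factors PU.1 (encoded by *Spi1*) and C/EBP are known regulators of myeloid genes. The letters GAGGAA (the core of a PU.1 site) and TTGCNNAA (a form of the C/EBP site, N being any base) were searched on both strands in the 250 bases before each RefSeq start site of build GRCm38.p6. The motifs were not allowed to differ by any letter, and a base can belong to both. Matches are in capitals, and each sequence stops before the first base that GENCODE M21 annotates as exon. All 4 stretches shown hold a match, so they are not typical of the leading genes. The stretches of *Lyz2*, *Fcer1g* and *Camp* held 0 matches to either motif, and that of *Cst3* held the PU.1 letters. These are not shown.
C1qb: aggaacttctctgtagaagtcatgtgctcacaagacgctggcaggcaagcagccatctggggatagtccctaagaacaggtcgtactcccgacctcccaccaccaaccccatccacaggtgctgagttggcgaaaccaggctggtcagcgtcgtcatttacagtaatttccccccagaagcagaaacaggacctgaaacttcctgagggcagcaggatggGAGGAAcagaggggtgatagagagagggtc
S100a8: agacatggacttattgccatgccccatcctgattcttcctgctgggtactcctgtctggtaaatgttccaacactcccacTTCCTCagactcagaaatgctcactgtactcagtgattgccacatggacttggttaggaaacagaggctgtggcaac
S100a9: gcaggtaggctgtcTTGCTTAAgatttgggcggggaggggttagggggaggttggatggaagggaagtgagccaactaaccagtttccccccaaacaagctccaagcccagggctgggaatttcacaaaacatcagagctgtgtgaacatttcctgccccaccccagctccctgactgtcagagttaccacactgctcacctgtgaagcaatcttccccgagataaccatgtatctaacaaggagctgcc
Ngp: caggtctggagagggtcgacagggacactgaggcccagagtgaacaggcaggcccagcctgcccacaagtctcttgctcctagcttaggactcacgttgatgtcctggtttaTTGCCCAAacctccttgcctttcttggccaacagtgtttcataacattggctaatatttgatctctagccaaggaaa

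The *C1qb* stretch is chr4:136886201-136886450 on the minus strand, with a PU.1 match 30 bases before the start site. The *S100a8* stretch is chr3:90668821-90668977 on the plus strand, with the PU.1 letters on the opposite strand 170 bases before the start. The *S100a9* stretch is chr3:90695722-90695971 on the minus strand and holds the C/EBP letters 236 bases before the start. The *Ngp* stretch is chr9:110419558-110419746 on the plus strand and holds them 138 bases before the start. The promoter table had entries for 281 of the 374 higher genes, with 363 promoters, and none for *C1qa* or *Tyrobp*. GAGGAA was in 35.5% of the 363 promoters, in 23.3% of all 32851 promoters and in 23.0% of the 12865 promoters of the genes tested. TTGCNNAA was in 11.6%, 9.56% and 7.63% of the same promoters. These shares count letters and say nothing of binding.

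The macrophage genes were as a group higher in cluster 12. Of 17 macrophage markers in the table, 11 were at least 4-fold higher and none at least 4-fold lower, with a median log2 ratio of 3.38 against -0.05 over all genes tested. Their summed level was 2359 CPM (2267 to 2455) in cluster 12 and 3.87 to 35.1 CPM in the other clusters, and 83.3% of the library's macrophage list UMIs lay in cluster 12. *Csf1r*, the receptor for the macrophage growth factor CSF-1, was at 377 CPM against 0 to 2.70 CPM in the other clusters.

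*Cd68*, a lysosomal membrane protein of phagocytes, was at 430 CPM against 0 to 12.9 CPM, and *Cd14*, a co-receptor for lipopolysaccharide, was at 254 CPM against 0 to 8.77 CPM. *Adgre1*, which encodes F4/80, was at 121 CPM against 0 to 2.86 CPM. *Mrc1*, the mannose receptor of many tissue macrophages, was at 54.9 CPM against 0 to 1.78 CPM. Other receptors of macrophages were at or near 0. *Cd163*, a haemoglobin scavenger receptor, had 1 UMI in cluster 12, *Mertk* had 5 and *Folr2* had 0, which allows up to 2.89 CPM (3 counts).

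Complement genes followed the macrophage markers. Of 13 in the table, 9 were at least 4-fold higher and none lower, with a median log2 ratio of 2.95. The 9 include *C1qa*, which named the cluster. *C1qb* was at 2248 CPM and *C1qc* at 1811 CPM, against at most 13.4 and 8.56 CPM in other clusters. The genes of the 3 C1q chains lie side by side on chromosome 4 (GRCm38, *C1qa* at 136895917 to 136898803). The anaphylatoxin receptor *C3ar1* was at 112 CPM with 98.3% of its UMIs in cluster 12. *C5ar1* was at 94.4 CPM with 0 UMIs in any other kidney cluster, at least 909-fold higher than the limit that 3 counts set in the other cells. *C3*, the central component, was at 108 CPM against up to 76.2 CPM in cluster 7, where kidney tubule genes were highest.

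Genes for Fc receptors and their signalling chain formed a broad set. Of 15 in the table, 13 were at least 4-fold higher and none lower, and all 15 were highest in cluster 12. *Fcer1g*, the common gamma chain that activating Fc receptors need, was at 2478 CPM against 5.09 to 45.7 CPM. *Tyrobp*, the adaptor DAP12, was at 1971 CPM against 1.03 to 52.5 CPM. The activating receptor genes *Fcgr3* and *Fcgr4* were at 175 and 131 CPM, with at most 1.22 and 1.39 CPM elsewhere. *Fcgr2b*, the inhibitory receptor that B cells share, was at 115 CPM against 31.8 CPM in cluster 8. The *Fcgr* genes are close paralogs, so counts may be split between them.

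*Lyn*, a kinase downstream of these receptors, was also higher, at 242 CPM against at most 90.3 CPM. A list of mostly inhibitory receptors of myeloid cells was in part higher in the same cluster. Of its 12 genes, 7 were at least 4-fold higher and none lower. *Sirpa*, which binds the signal CD47, was at 140 CPM against 0 to 43.2 CPM. *Clec12a*, *Siglece* and *Cd300a* were at 111, 107 and 97.3 CPM, and *Lilra5*, which is not an inhibitory receptor, at 114 CPM. Each had at most 3.10 CPM in another cluster. *Ptpn6*, the phosphatase SHP-1 that T cells share, was at 226 CPM against 109 to 203 CPM.

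MHC class II genes were the most counted group. Of 10 genes, 8 were at least 4-fold higher and none lower, with a median log2 ratio of 3.87. Their summed level was 48189 CPM in cluster 12, and 49.3% of the library's UMIs for the list lay there. The count and the sum include *Cd74*, which named the cluster and was itself at 24827 CPM. *H2-Aa*, *H2-Eb1* and *H2-Ab1*, which encode the class II chains, were at 8646, 8086 and 5382 CPM. *Ciita*, the master regulator of class II transcription, was at 51.0 CPM against 0 to 16.1 CPM. The 2 that did not reach 4-fold were *H2-Oa* and *H2-Ob*, which encode the B cell-typical modulator of peptide loading, at 42.4 and 28.9 CPM. Class II genes are polymorphic, the mice are NZB/W and the reference is C57BL/6J, and any effect on these counts was not tested.

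Cluster 8, with 544 cells, was the other class II-rich cluster of the kidney, and its summed class II level was 14892 CPM. The level in cluster 12 was 3.24-fold higher (3.19 to 3.28). Both sums include *Cd74*, which named the cluster and had a ratio of 2.85 (2.80 to 2.90). The genes did not share the same ratio between the clusters. *H2-DMb1* was at 318 CPM in cluster 12 and 24.6 CPM in cluster 8, a 12.9-fold difference (9.93 to 17.0), whereas *H2-DMb2* was at 365 and 297 CPM, or 1.23-fold (1.09 to 1.39). The summed ratio was lower with totals that leave out receptor, immunoglobulin, mitochondrial and ribosomal protein genes. Such totals scale each gene's ratio alike, so whether *H2-DMb2* exceeded its level in cluster 8 depends on the totals used. *H2-Ob* was lower in cluster 12, at 28.9 against 61.02 CPM, and the interval of the ratio did not reach 1 (0.310 to 0.701). These genes encode the peptide loading chaperone H2-M and its modulator H2-O.

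The same pair of clusters differed in lineage genes. Cluster 8 had *Cd79a*, a chain of the B cell receptor complex, at 1074 CPM and *Ms4a1* (CD20) at 225 CPM, and cluster 12 had 3 and 0 UMIs of these. In turn *Lyz2*, *Cst3* and *C1qa* were at 3.21, 342 and 6.42 CPM in cluster 8. Of 10536 genes tested between the clusters, 362 were at least 4-fold higher in cluster 12 (3.44%) and 136 lower (1.29%). *Cd83*, an activation marker shared by B cells and dendritic cells, was lower in cluster 12, at 111 against 195 CPM.

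Lysosomal genes were higher with few exceptions. Of 22 in the table, 14 were at least 4-fold higher and none at least 4-fold lower, with a median log2 ratio of 2.50. The 14 include *Lyz2* and *Cst3*, which named the cluster. *Psap*, the precursor of the saposins, was at 3135 CPM against 155 to 318 CPM. *Ctss*, the protease that trims the invariant chain, was at 1436 CPM against 58.1 to 196 CPM, and *Ctsb* was at 1216 CPM against 129 to 390 CPM. *Ctsd*, another lysosomal protease, went the other way at 254 CPM in cluster 12 and 666 CPM in the other cells. It was the only member of the list with a lower level in cluster 12.

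Genes of the neutrophil list were counted almost only in cluster 12. The list holds the calprotectin genes *S100a8* and *S100a9* and receptor genes such as *Csf3r* beside granule genes. The summed level of the 12 neutrophil genes was 18320 CPM (18061 to 18582) in cluster 12 and 0.463 to 13.3 CPM in the other 11 clusters, and 99.3% of the library's UMIs for the list lay in cluster 12. *S100a8* was at 5942 CPM with 6170 UMIs there and 23 in all other clusters, and *Ngp* at 3166 CPM and *Camp* at 2570 CPM had at most 2.07 CPM in any other cluster. *Ltf*, lactoferrin of the secondary granules, was at 362 CPM, and *Elane*, neutrophil elastase of the primary granules, was at 53.0 CPM with 0 UMIs elsewhere. Other genes of the list had few UMIs, with 20 of *Csf3r*, 22 of *Ly6g*, 3 of *Cxcr2*, 3 of *Mmp8*, 3 of *Mmp9* and 2 of *Mpo*. The median log2 ratio of the list was 2.11, and 6 of its 12 genes were at least 4-fold higher and none lower.

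Dendritic cell and monocyte markers were also present. Of 9 genes of type 1 conventional dendritic cells (cDC1), 7 were at least 4-fold higher and all 9 were highest in cluster 12, with a median log2 ratio of 2.76. *Irf8*, the factor on which cDC1 depend, was at 537 CPM and *Naaa* at 353 CPM, against at most 124 and 16.1 CPM. The cDC1 receptors *Xcr1* and *Clec9a* were at 61.6 and 49.1 CPM, against at most 2.20 and 2.69 CPM, and the cDC1 factor *Batf3* was at 85.7 CPM. Of 10 genes of type 2 conventional dendritic cells, 5 were at least 4-fold higher. The lectins *Mgl2*, *Clec10a* and *Cd209a* were at 142, 49.1 and 30.8 CPM, with at most 2.58 CPM in another cluster.

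Of 9 genes of mature dendritic cells, only *Fscn1* was at least 4-fold higher, at 79.9 CPM against 0.517 to 16.9 CPM. Of 8 genes of plasmacytoid dendritic cells, *Siglech* (35.6 CPM), *Cox6a2* (68.4 CPM) and *Tcf4* were at least 4-fold higher. Non-classical monocyte genes stood out more than classical ones, with 7 of 10 at least 4-fold higher against 2 of 9. *Treml4*, *Ear2* and *Ace* were at 128, 101 and 60.7 CPM, against at most 3.10 CPM elsewhere. *Ly6c2*, which memory CD8+ T cells share with classical monocytes, was at 392 CPM in cluster 12 and 425 to 1834 CPM in the other clusters. The classical monocyte gene *Hp*, haptoglobin, was at 247 CPM against at most 0.714 CPM.

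**Figure D2:**
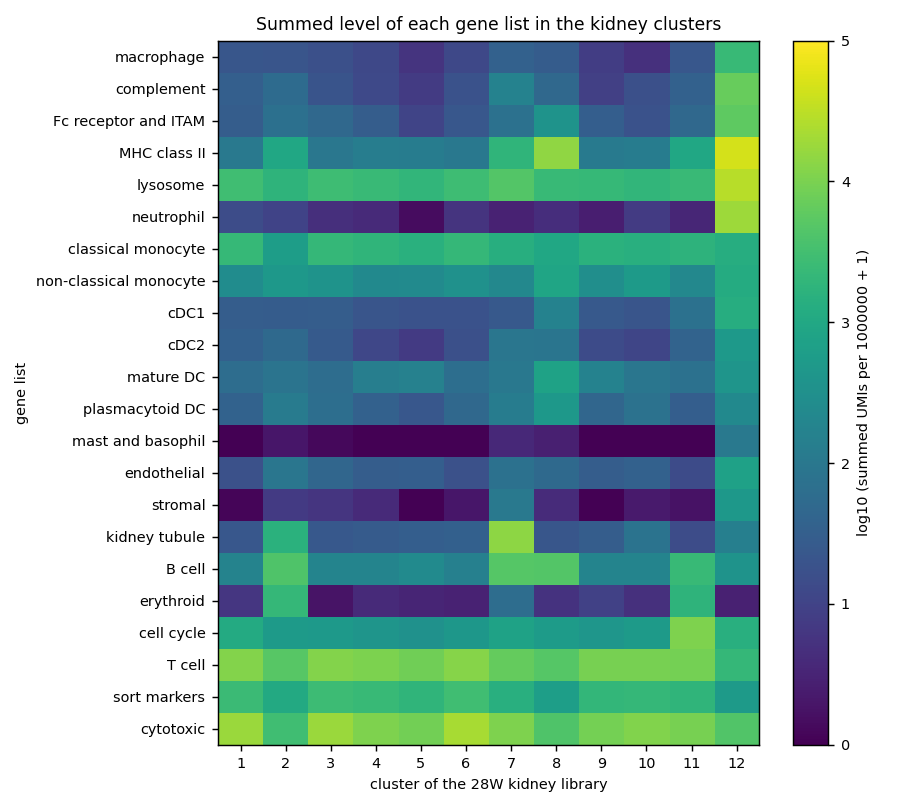
Summed level of 22 gene lists (rows) in the 12 clusters of the 28W kidney library (columns), as the log10 of UMIs per 1000000 plus 1. Cluster 12 is brightest for the macrophage, complement, Fc receptor, MHC class II, lysosome, neutrophil, dendritic cell, endothelial and stromal lists except for mature and plasmacytoid DC, and the lowest of the 12 clusters for the T cell and sort marker lists. Cluster 8 comes next for MHC class II (14892 CPM) and cluster 7 holds most of the kidney tubule genes (14228 CPM).

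Genes of cells outside the myeloid lineage, and of mast cells and basophils, were in the same cluster. Of 7 endothelial genes, 4 were at least 4-fold higher, and all 7 were highest in cluster 12. *Plvap*, a diaphragm protein of fenestrated endothelium, was at 371 CPM against 0 to 31.01 CPM, *Emcn* at 132 CPM against 0 to 16.9 CPM, and *Kdr*, the VEGF receptor, at 56.8 CPM against 0 to 10.3 CPM. *Dcn*, the matrix proteoglycan decorin of fibroblasts, was at 272 CPM with 98.6% of its UMIs in cluster 12, and *Col3a1* was at 36.6 CPM. *Cpa3*, a mast cell and basophil protease, had 73 UMIs in cluster 12 (70.3 CPM) and 0 in the other clusters. It was the only 1 of 6 mast cell and basophil genes at least 4-fold higher. Of the 6, 5 were highest in cluster 12, but only 3 had at least 10 UMIs in the library, and *Ms4a2* had 0 UMIs in cluster 12. Of 5 podocyte genes, *Podxl*, podocalyxin, which endothelium also makes, was at least 4-fold higher at 44.3 CPM against 0 to 7.24 CPM, while *Nphs1*, nephrin of the slit diaphragm, had 0 UMIs. The summed podocyte level was 52.0 CPM against at most 10.3 CPM in another cluster.

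The label rests on the 4 marker genes, which the naming itself used, and markers of neutrophils, macrophages, several kinds of dendritic cell, endothelium and fibroblasts met under a single cluster number. The deposited tables give sums per cluster, and whether the same barcode carried more than 1 of these marker sets cannot be told apart from separate barcodes of each kind. Their part in each other's levels was not tested. Whether the authors removed doublets is not stated, and no caller could be run without values per cell. UMIs per cell in cluster 12 (5643) lay inside the range of the other kidney clusters (1200 to 11404), and mitochondrial transcripts were 0.675% of its UMIs against 0.515% to 10.8%. The kidney library shared 56 barcodes with 12W spleen and 66 with 28W spleen, of which 1 was in cluster 12.

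Red cell genes were nearly missing, as in most kidney clusters. The erythroid list had 2 UMIs in cluster 12 (1.93 CPM) and was at 2147 and 1809 CPM in clusters 2 and 11. It was at 60.7 CPM in cluster 7 and 0.805 to 8.35 CPM in the rest. *Hbb-bs*, beta globin, had 0 UMIs against 215 CPM in the other cells together, at least 74.4-fold lower than the limit of 3 counts. Of 10 kidney tubule genes, 3 were at least 4-fold lower and none higher, with a median log2 ratio of -1.42. Cluster 7 held 21103 of the list's UMIs against 151 in cluster 12, and the median was -0.065 against the other cells without clusters 7 and 8. The summed tubule level of 145 CPM in cluster 12 lay below those of clusters 7 and 2 and above the other 9. The proximal tubule genes *Miox*, *Slc34a1* and *Spink1* had 3, 1 and 0 UMIs in cluster 12, against 90.8, 61.2 and 73.1 CPM in the other cells. *Gpx3*, secreted by tubule cells, was at 114 CPM in cluster 12, above all clusters but 7 and 2. Also among the 15 lowest were *Hba-a1*, *Gm20730*, *Jchain*, *Mzb1*, *Cd79a* and the immunoglobulin genes *Igkc*, *Iglc2*, *Igha*, *Ighg2b* and *Ighg3*, of which *Jchain* and *Igkc* had 88 and 93 UMIs and the others at most 6.

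**Figure D3:**
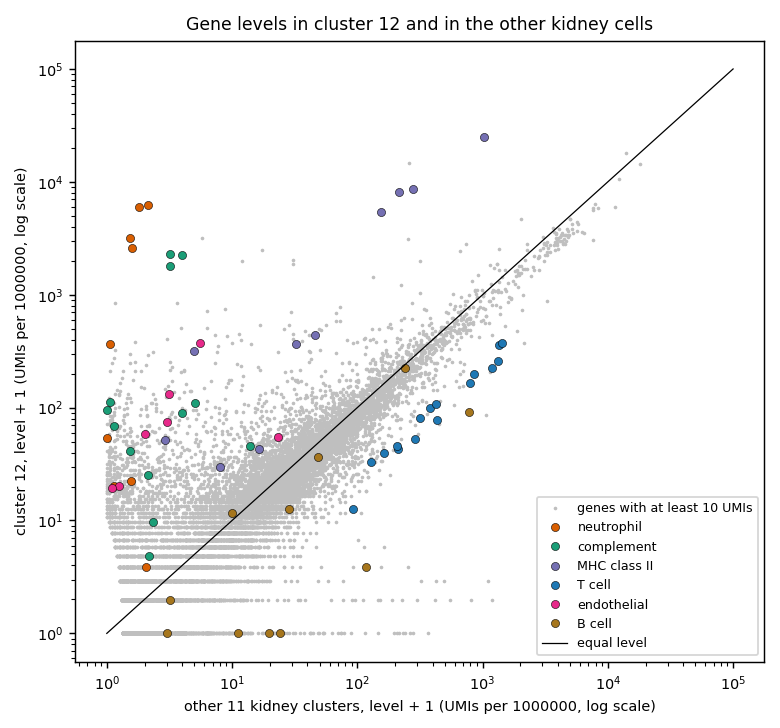
Level of each of 13582 genes in cluster 12 (vertical) against the other 11 kidney clusters together (horizontal), both as UMIs per 1000000 plus 1 on log axes, with the line of equal level. Neutrophil, complement, MHC class II and endothelial genes lie above the line, T cell genes lie below it (median log2 ratio -2.02), and B cell genes lie mostly below it (-0.81, but -0.012 against the other cells without clusters 7 and 8).

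The regulators of myeloid identity were among the higher genes. Of 15 myeloid transcription factor genes, 9 were at least 4-fold higher and none lower, with a median log2 ratio of 2.44. *Spi1*, which encodes PU.1, was at 502 CPM (460 to 547) against 0 to 43.9 CPM. *Cebpb* was at 683 CPM against 31.02 to 243 CPM and *Irf5*, a lupus risk gene in humans, at 164 CPM against 0 to 35.0 CPM. *Id2* and *Klf4*, which lymphocytes also express, did not reach 4-fold, at 416 and 118 CPM against up to 728 and 392 CPM in other clusters.

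Receptors for growth factors followed the same division. Of 20 cytokine receptor genes, 7 were at least 4-fold higher and none lower, with a median log2 ratio of 1.35. *Csf2ra*, a chain of the GM-CSF receptor, was at 229 CPM against 0.926 to 8.27 CPM and *Cx3cr1*, the fractalkine receptor, at 209 CPM against 0.417 to 5.87 CPM. Receptors that T cells share differed less. *Ifngr1* was at 378 CPM against 96.1 to 255 CPM, *Ifnar2* at 250 CPM against 73.1 to 178 CPM, and *Ccr2* at 182 CPM against 10.4 to 238 CPM.

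Sensors of nucleic acid and bacterial products were measured because Toll-like receptors of RNA and DNA are known drivers of lupus. Of 24 innate sensor genes, 8 were at least 4-fold higher, and the median log2 ratio was 1.23. *Unc93b1*, the chaperone that nucleic acid-sensing receptors need, was at 477 CPM against 13.9 to 174 CPM. *Cybb*, the oxidase subunit of phagocytes, was at 363 CPM against 3.42 to 79.9 CPM, and *Mpeg1*, perforin-2, at 313 CPM against 0 to 4.28 CPM. The RNA sensor *Tlr7* had 22 UMIs (21.2 CPM, 13.3 to 32.1) and the DNA sensor *Tlr9* had 15 (14.5 CPM, 8.09 to 23.8), against at most 7.75 and 5.35 CPM in other clusters.

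Several chemokines that draw leukocytes into tissue were detected almost only in cluster 12. Of 16 chemokine genes, 9 were at least 4-fold higher and none lower, with a median log2 ratio of 2.52. *Ccl12* and *Ccl2*, ligands of CCR2, were at 324 CPM (291 to 361) and 120 CPM (100 to 143), with at most 2.07 and 0.674 CPM in another cluster. *Ccl6* was at 237 CPM, *Cxcl2*, which recruits neutrophils, at 206 CPM, and *Cxcl9*, an interferon-gamma-induced ligand of CXCR3, at 68.4 CPM.

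*Cxcl16*, the ligand of the T cell receptor CXCR6, was at 251 CPM against 0 to 37.8 CPM. *Ccl4* and *Ccl3*, which CD8+ T cells also make, were at 743 and 120 CPM against up to 565 and 52.8 CPM. *Cxcl13*, which recruits B cells, had 0 UMIs.

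Few cytokine genes stood out. Of 20 in the table, 3 were at least 4-fold higher and none lower, with a median log2 ratio of 0.88. *Il1b* was at 140 CPM (118 to 164) against 0 to 2.14 CPM. *Il12b*, the p40 chain of IL-12 and IL-23, was at 100 CPM (81.8 to 121) with 104 UMIs in cluster 12 and 1 in all other clusters, while *Il12a*, the p35 chain, had 0 UMIs. *Tnfsf13b*, which encodes the B cell survival factor BAFF, was at 46.2 CPM against 0.674 to 5.17 CPM. *Tnf* and *Tgfb1*, which T cells also make, were at 123 and 266 CPM against up to 125 and 233 CPM in other clusters. *Il6* and *Il10* had 2 and 3 UMIs.

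Ligands for T cell co-stimulation and inhibition were of interest because the sort was for PD-1. Of 16 such genes, only *Cd40* was at least 4-fold higher, at 64.5 CPM against 0 to 20.7 CPM, and the median log2 ratio was 0.09, or -0.041 with totals that leave out receptor, immunoglobulin, mitochondrial and ribosomal protein genes. *Cd274*, which encodes PD-L1, was at 28.9 CPM (19.5 to 41.2) from 30 UMIs, against 25.4 CPM in the other cells together and 60.7 CPM in cluster 8. *Pdcd1lg2*, which encodes PD-L2, was at 8.67 CPM (3.96 to 16.5) against 13.8 CPM. For both PD-1 ligands the interval of the ratio to the other cells included 1 (0.761 to 1.64 and 0.284 to 1.20).

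*Cd86*, the co-stimulatory ligand of CD28, was at 124 CPM against 14.8 to 71.9 CPM and highest in cluster 12. *Lgals9*, *Cd48* and *Vsir* were at 145, 252 and 124 CPM, and each was higher in at least 1 other cluster. *Tnfsf4* had 0 UMIs. The genes of inhibitory receptors gave a median log2 ratio of -0.50 over 9 genes, none of them at least 4-fold apart. *Pdcd1* itself was at 68.4 CPM (53.4 to 86.3) against 24.6 to 229 CPM. *Havcr2* (TIM-3), which dendritic cells share, was at 38.5 CPM against 0 to 10.0 CPM and was highest in cluster 12, as was the ectoenzyme *Entpd1* (CD39) at 68.4 CPM. *Lag3*, *Tigit*, *Ctla4*, *Cd38*, *Cd160* and *Nt5e* were at 51.0, 37.6, 21.2, 32.7, 15.4 and 2.89 CPM, below the other cells together.

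Interferon-stimulated genes did not separate cluster 12 from the T cells. Of 18, only *Ifitm3* and *Cxcl9* were at least 4-fold higher, none was lower by that much, and the median log2 ratio was -0.07. *Ifitm3* was at 1867 CPM against 11.7 to 91.0 CPM. *Isg15* was at 268 CPM against 144 to 908 CPM and *Irf7* at 217 CPM against 51.5 to 220 CPM. Cluster 6 had the highest level of both.

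Genes for lipid handling and scavenging were in part higher. Of 15, 7 were at least 4-fold higher and none lower, with a median log2 ratio of 1.83. *Apoe* was at 2032 CPM against 1.57 to 395 CPM, and the fatty acid binding protein *Fabp4* at 140 CPM against 0 to 16.5 CPM. *Spp1*, osteopontin, was at 403 CPM in cluster 12 but at 2372 CPM in the tubule-rich cluster 7. *Cd9*, *Lgals3* and *Plin2* were at 314, 378 and 152 CPM, each above every other cluster.

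T cell transcripts were present in cluster 12 at a lower level than in T cell clusters. As a reference, 7 kidney clusters with *Cd74* below 100 CPM were used (clusters 1, 3, 4, 5, 6, 9 and 10, with 4665 cells), a rule chosen after the data were seen. Each of the 16 T cell genes was lower in cluster 12 than in every reference cluster, at 11.8% to 24.4% of the reference level with a median of 20.8%. *Cd3e* was at 358 CPM against 1557 CPM, or 23.0% (20.7 to 25.5), and *Trac* at 52.0 CPM against 323 CPM, or 16.1% (12.1 to 21.04).

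Transcripts of the T cell receptor V segments gave a like picture, with *Trav* genes at 173 CPM against 544 to 1146 CPM in the reference clusters and *Trbv* genes at 344 CPM against 934 to 2264 CPM. The sort markers *Cd8a* and *Cd8b1* were at 160 and 204 CPM, which was 17.9% (15.3 to 20.9) and 15.2% (13.2 to 17.4) of the reference. *Pdcd1* was at 49.9% (38.8 to 63.1). *Cd44*, which phagocytes also express, was at 109 CPM or 139% (113 to 168) of the reference.

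Among 12 cytotoxic genes the median was 24.8%. *Gzmk* was at 16.3% (13.3 to 19.6) and *Nkg7* at 22.4% (20.4 to 24.4), while *Gzma* was at 126% (108 to 146) with 182 CPM. *Ccl5*, the T cell chemokine, was at 3034 CPM or 32.2% (31.1 to 33.3). A smaller share of T cells among the barcodes, barcodes that held both kinds of cell, and RNA from other cells cannot be told apart in these sums.

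**Figure D4:**
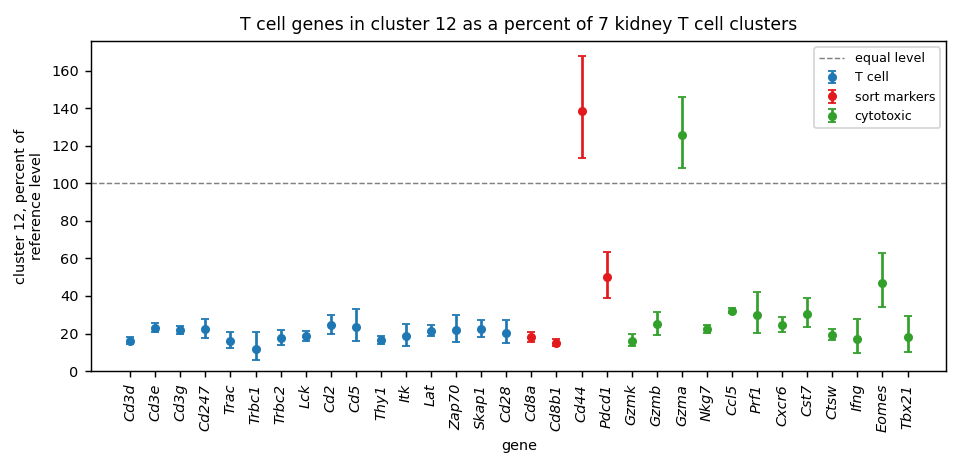
Level of T cell genes (blue), sort markers (red) and cytotoxic genes (green) in cluster 12 as a percent of their level in 7 kidney clusters with *Cd74* below 100 CPM, with 95% counting intervals and a dashed line at equal level. The T cell genes sit between 11.8% and 24.4%, and *Cd44* and *Gzma* lie above 100%.

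The spleen libraries were examined for the same gene sets, since their cells were sorted by the same markers. Clusters were numbered by the authors within each library, and levels across libraries rest on the rescaling to cluster totals. In 28W spleen, cluster 10 (247 cells) and cluster 8 (376 cells) carried myeloid genes beside genes of other cells. Cluster 10 had the macrophage list at 525 CPM, MHC class II at 29137 CPM and cDC1 genes at 807 CPM, and its neutrophil list was at 117 CPM. Its B cell list was at 8895 CPM and its plasma cell list at 6802 CPM, and B cells also express class II. Cluster 8 had the neutrophil list at 24253 CPM, the macrophage list at 52.1 CPM and MHC class II at 873 CPM, with the erythroid list at 40824 CPM.

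The neutrophil and the macrophage lists, both highest in cluster 12 in kidney, thus had their highest summed levels in separate clusters in 28W spleen. Not every gene followed its list. Among genes with few UMIs, the neutrophil genes *Csf3r* and *Cxcr2* were highest in spleen cluster 10. The macrophage list genes *Fcgr1* and *C5ar1* were highest in spleen cluster 8. *S100a8* was at 7271 CPM in spleen cluster 8 and *C1qa* at 247 CPM in spleen cluster 10, against 5942 and 2293 CPM in kidney cluster 12. Of the 374 genes at least 4-fold higher in kidney cluster 12, 304 had at least 10 UMIs in 28W spleen and 127 were also at least 4-fold higher in spleen cluster 10. This was 34.0% of the kidney genes and 48.7% of the 261 genes of spleen cluster 10 (2.11% of the 12358 genes tested there).

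For spleen cluster 8, 26 were shared, which was 6.95% of the kidney genes and 32.5% of its 80 genes (0.647% of those tested). Of the 374 genes, 117 were shared with spleen cluster 10 only, 16 with cluster 8 only, 10 with both and 231 with neither. Only 304 of the 374 had enough UMIs in 28W spleen to be called there. The others count among the 231, so these do not measure expression that is absent from spleen myeloid cells. The other 9 clusters of 28W spleen shared 0 genes with the kidney list, but most of them had few or no genes to share. Clusters 6 and 11 had 76 and 263 genes at least 4-fold higher (0.615% and 2.13% of those tested). The rest had between 0 and 4.

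In 12W spleen, cluster 3 (1061 cells) had the neutrophil list at 1178 CPM, the macrophage list at 115 CPM and MHC class II at 3551 CPM. Its erythroid list was at 37158 CPM, its plasma cell list at 2838 CPM and its B cell list at 1836 CPM. The part of these other cells in the shared genes was not tested. Cluster 3 shared 25 of its 77 genes (32.5%; 0.621% of those tested) with the 374 kidney genes, or 6.68% of these. Of the 374, 274 had at least 10 UMIs in 12W spleen and could be called there. *Ccl12* had 2 UMIs in the whole 28W spleen library against 337 in kidney cluster 12, and *Plvap* had 1 against 385. Age, organ, tissue digestion and library cannot be told apart in these contrasts.

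**Figure D5:**
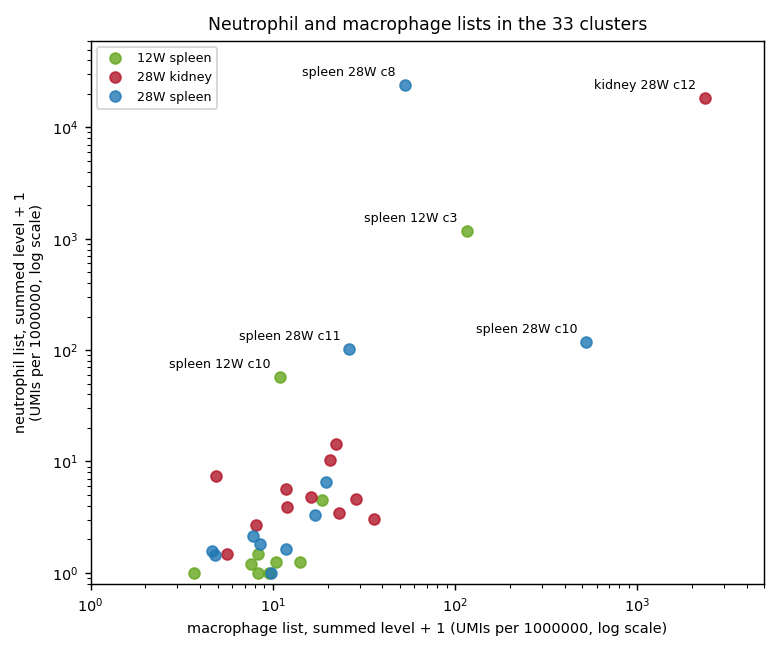
Summed level of the neutrophil list (vertical) and the macrophage list (horizontal) in the 33 clusters of the 3 libraries, as UMIs per 1000000 plus 1 on log axes, coloured by library. Kidney cluster 12 is high on both axes (18320 and 2359), spleen 28W cluster 8 is high for neutrophil genes only (24253 and 52.1) and spleen 28W cluster 10 mainly for macrophage genes (117 and 525).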

How the data were processed

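PD-1+CD44+CD8+ T cells of spleen and kidney were profiled by single-cell RNA sequencing with the 10x Genomics 5′ chemistry. The submitters' processing notes list Cell Ranger 2.1.1, R 3.6.1 and GRCm38. The annotation release, cell filters and doublet treatment are not given in the sources used here.

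The files used were a cluster number per barcode and, per gene and cluster, the mean UMI count per cell, which the authors had scaled to the library's median cell depth (3501 UMIs in kidney). Further deposited columns hold the log2 fold change and adjusted p-value of the authors' own cluster comparisons, and neither was used. Every mean count in a column was a whole multiple of a single step, and division by that step gave whole UMIs, 29937384 in the kidney library over 17790 genes. UMIs were rescaled to 1000000 per cluster (CPM). Because each library has its own table and scaling, comparisons between libraries depend on that rescaling.

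Cluster 12 was compared with the sum of the other 11 kidney clusters as the log2 of CPM plus 10, for genes with at least 10 UMIs in the library. Lacking replicates, the comparison carries no test. Intervals at 95% are exact Poisson limits for levels, exact binomial limits for shares and limits from counts for ratios, and 3 counts set the limit for a gene at 0. Free RNA can give low counts in cells that do not express a gene, so levels in the other clusters stand beside each value. GENCODE M21 held 17762 of the gene identifiers and gave coordinates, and promoters came from RefSeq.

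The 40 gene lists hold 438 genes, of which 429 were in the table and 27 in more than 1 list. Genes named were the 4 markers, the 25 highest and 15 lowest log2 ratios among genes with at least 50 CPM on the higher side (receptor V, D and J segments apart), genes among the 15 highest levels without mitochondrial and ribosomal protein genes, and members of each list. From a list these were the 6 with most UMIs, members at 0, members 4-fold against the rest, or the whole list where it had up to 10. *Adgre1*, *Mrc1*, *Mertk*, *Fcgr2b*, *Ctsd*, *Ccl2*, *Csf3r*, *Ly6g*, *Cxcr2*, *Mmp8*, *Mmp9*, *Mpo*, *Tlr7*, *Tlr9*, *Il6*, *Il10*, *Cd274*, *Pdcd1lg2* and *Trac* were added after their values were seen. The members and lists were chosen with earlier results of these data known. Alternatives changed the pseudocount, the minimum count, the reference clusters and the scaling. UMI recovery was tested on simulated data. Python 3.11.15, numpy 2.4.6, pandas 2.3.3, scipy 1.17.1 and matplotlib 3.10.9 were used. T cell receptor clonotypes were not used here. Some genes that the naming rule covers are not reported here.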

Additional observations from a re-analysis of the deposited data

How the results depend on the processing

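Adding 1 CPM in place of 10 before the log2 ratio raised the genes at least 4-fold higher in cluster 12 from 374 to 1199 and those at least 4-fold lower from 88 to 412, and the lists with a median log2 ratio of at most -1 from 5 to 8. Scaling to totals without receptor, immunoglobulin, mitochondrial and ribosomal protein genes gave 139 lower genes and a 2.58-fold MHC class II level over cluster 8 instead of 3.24-fold. It also turned the median of the immediate-early and heat shock list from 0.14 to -0.011 and that of the T cell ligand list from 0.09 to -0.041. Without clusters 7 and 8 in the reference, the B cell median went from -0.81 to -0.012 and the kidney tubule median from -1.42 to -0.065. Across 40 lists and 7 alternatives, 231 of 280 list medians stayed inside the counting interval of the median, 48 left it and 1 was reversed. The T cell gene level, 20.8% of the reference, was 22.4% with all other 11 clusters as reference and 18.5% with the other totals. Taken as the median over genes instead of the pooled UMIs, the share held by cluster 12 was 87.7% instead of 83.3% for macrophage, 99.5% instead of 99.3% for neutrophil, 47.5% instead of 49.3% for MHC class II and 77.5% instead of 75.5% for Fc receptor and signalling genes, each outside its counting interval. No paired analysis was possible because the columns name clusters and carry no sample or replicate number, and no sample could be left out for the same reason. Depth limits a gene at 0 UMIs in cluster 12 to 2.89 CPM.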

Other observations

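Genes of iron and haem handling, which macrophages use to recycle red cells, were partly higher in cluster 12. Of 10, 3 were at least 4-fold higher and none lower, with a median log2 ratio of 1.57. *Hmox1*, haem oxygenase, was at 117 CPM against 2.09 to 27.5 CPM in the other kidney clusters, and *Slc11a1*, the metal transporter of phagosomes, was at 76.1 CPM against 0 to 2.07 CPM. *Hfe* was at 96.3 CPM against 0 to 3.37 CPM. The ferritin genes *Fth1* and *Ftl1* were at 4728 and 2803 CPM, against up to 4309 and 2335 CPM in cluster 7. *Spic* had 6 UMIs and *Slc40a1*, the iron exporter, had 14.

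A few natural killer cell genes were highest in cluster 12. *Ncr1*, which encodes the receptor NKp46, was at 67.4 CPM (52.6 to 85.2) against 0 to 8.32 CPM and was the only 1 of 7 genes at least 4-fold higher. *Klra4* and *Klrb1c* were at 29.9 and 21.2 CPM against at most 9.99 and 6.202 CPM, while *Klrk1* and *Klrd1*, which CD8+ T cells share, were at 57.8 and 30.8 CPM against 87.9 and 101 CPM in the other cells together. Of 10 cell cycle genes and 14 immediate-early and heat shock genes, none differed 4-fold, and their median log2 ratios were -0.42 and 0.14, the latter -0.011 with totals that leave out receptor, immunoglobulin, mitochondrial and ribosomal protein genes. *Ccr7*, the homing receptor of mature dendritic and naive T cells, was at 127 CPM, or 321% (265 to 386) of the 7 reference T cell clusters, but cluster 8 had 460 CPM. It was the highest of 8 memory and homing genes by this percent, whose median was 55.1% and minimum 17.5%. Against all other kidney cells, 2 of these 8 genes were higher and none differed 4-fold, with a median log2 ratio of -0.84.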
